A study of Zea mays with 6 samples.

Results

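The cytosolic glyceraldehyde-3-phosphate dehydrogenase (GAPDH) genes of maize were followed through 6 probe sets of 17621 on the array, which stand for 4 of the 1108 genes with a single name there. The probe sets report GAPC, also listed as gpc1, by 1 probe set, gpc2 by 1, gpc3 by 3 and gpc4 by 1. They were chosen by gene name with the comparison of genotypes already known. In it, probe sets of gpc3 and gpc4 lay lower in DpDf once wild type replicate 3 was left out. The values of that comparison are therefore given as a description, and no test of the members is read from them.

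The study compared seedlings of the inbred B73 that carried a segmental aneuploidy with their wild-type siblings. DpDf plants, named for a duplication and a deficiency, derive from the translocation T5-6b. Most of the short arm of chromosome 5 is present in 3 copies in them, and a small terminal piece of chromosome 6 in 1 copy. Wild-type siblings, from the same selfed DpDf parents, carry 2 copies of both. RNA came from tissue enriched in the shoot apical meristem, with leaf primordia, of seedlings aged 14 days, in 3 DpDf and 3 wild-type pools of 8 plants each, with 1 Affymetrix array per pool. Every plant in both groups thus came from the family that segregates for the translocation, and a pool averages over its 8 plants. Such tissue holds several cell types, so fewer cells of a type and less RNA per cell cannot be told apart.

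Cytosolic GAPDH oxidises and phosphorylates glyceraldehyde-3-phosphate in glycolysis and yields NADH. The enzyme sits at the start of the part of glycolysis that returns ATP, and its transcripts are among the most abundant in growing plant tissue. In maize, gpc3 and gpc4 are known as the family members whose transcripts accumulate when oxygen is scarce, whereas GAPC and gpc2 are regarded as the steadily expressed pair. The plastid enzymes encoded by gpa1 and gpb1 serve the Calvin cycle.

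Of the 4 genes, GAPC and gpc3 lie on chromosome 4, gpc4 on chromosome 5 and gpc2 on chromosome 6. The gene gpc4 lies 74.1% along the order of annotated genes on its chromosome and so outside the short arm that is present in 3 copies. The gene gpc2 lies 3.7% along the gene order of chromosome 6. The break on chromosome 6 is known from the labels by cytology and map position only, so whether DpDf plants carry 1 or 2 copies of gpc2 is not known here.

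The probe sets differ in how exclusive they are. The gpc3 probe set Zm.2601.1.S1_at is bright, and Zm.274.3.S1_at and Zm.274.3.S1_x_at are both dimmer. The ending _x_at marks, in the naming of Affymetrix, a probe set with probes that resemble other sequences, and _s_at marks one shared by several transcripts. The GAPC probe set Zm.3765.1.S1_s_at is of the second kind. Both dimmer gpc3 probe sets carry transcript cluster number 274, as does the gpc4 probe set Zm.274.1.A1_at, while the bright one carries cluster number 2601. The platform table assigns the dimmer pair to gpc3. No probe sequence was used here, so how far signal is shared between the closely similar paralogs gpc3 and gpc4 was not tested. Probe sets respond with unlike efficiency, and levels of different probe sets are therefore compared only as differences on the same array.

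The array of wild type replicate 3 stood apart from the others. Its highest Spearman correlation with another array was 0.932, against 0.994 to 0.998 for the other 5, and its median intensity was 415.9, against 490.9 to 506.1. The DpDf minus wild type difference on the log2 scale had a median of 0.18 over all 10661 probe sets tested when all 6 arrays were used, and 0.02 without this pool. The differences of the members and of the pathway genes named below are given in both settings. Nothing in the labels sets this pool apart. The meristem gene kn1 was above the 40th percentile of the array, the bound used for background, on all 6 arrays (9.77 to 10.42 on the log2 scale), and fea2 and lg3 on 5. Among genes of mature photosynthetic leaf, ssu1, the small subunit of Rubisco, was bright at 13.74 to 13.92, and me3 was lower at 9.32 to 9.80. Of the 8 probe sets of this leaf list 7 were tested, and a probe set of pdk1 that lay under the 40th percentile on all 6 arrays was not. Summed over the 7, intensity was 32942 to 35218 in DpDf and 25824 to 32290 in wild type. Of these 7 probe sets limma called 0 in either setting, and the 3 at an unadjusted p under 0.05 were in each setting probe sets of 1 gene, pdk1. Their differences were 0.37 to 0.56 with all 6 arrays and 0.29 to 0.41 without wild type replicate 3. A further tested probe set of pdk1 lay at 0.20 and -0.06 in these settings (limma unadjusted p = 0.413 and 0.461). Of all probe sets, 9.76% had an unadjusted p under 0.05 over all 6 arrays, and 20.3% did so once wild type replicate 3 was left out. The part of leaf tissue in the results below was not tested.

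**Figure D1:**
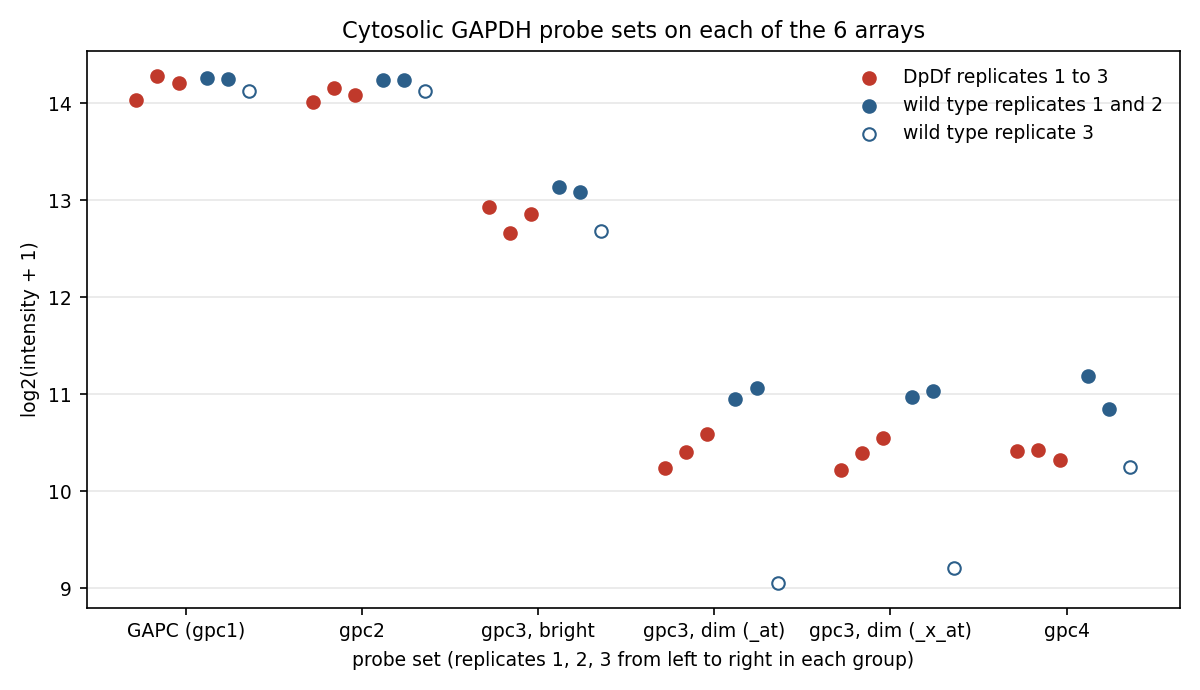
Log2(intensity + 1) of the 6 cytosolic GAPDH probe sets on each array, with DpDf pools in red, wild type replicates 1 and 2 in filled blue and wild type replicate 3 as an open circle. The dimmer gpc3 probe sets and gpc4 are lower in the 3 DpDf pools than in wild type replicates 1 and 2, and wild type replicate 3 is lowest of all in these 3 probe sets, at 9.06, 9.21 and 10.25.

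GAPC and gpc2 were among the brightest genes on the array. The DpDf pools 1, 2 and 3 had GAPC intensities of 16682, 19918 and 18983, and the wild-type pools 1, 2 and 3 had 19622, 19431 and 17955. DpDf pools gave both the highest and the lowest value, and the groups overlapped whether or not wild type replicate 3 was used. Its difference (DpDf minus wild type) was -0.04 ± 0.13 on the log2(intensity + 1) scale with all 6 arrays (limma SE, as in all differences below) and -0.08 ± 0.09 without wild type replicate 3. A further probe set of this gene, Zm.3765.2.S1_at, is no member and lay under the 40th percentile on all 6 arrays, at 7.82 in DpDf and 7.61 in wild type.

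For gpc2 the intensities were 16496, 18243 and 17340 in DpDf and 19292, 19395 and 17935 in wild type. Wild type replicates 1 and 2 lay above every DpDf pool, and wild type replicate 3 lay between DpDf replicates 2 and 3. The difference was -0.12 ± 0.12 over all 6 arrays and -0.16 ± 0.08 without wild type replicate 3, or 1.12-fold more in wild type in the latter setting. Both GAPC and gpc2 ranked at the 99.4th percentile or higher on every array. How the arrays respond at such brightness was not tested.

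The bright probe set of gpc3 read 7808, 6463 and 7408 in DpDf and 9020, 8692 and 6541 in wild type. As in gpc2, wild type replicates 1 and 2 lay above all DpDf pools. Unlike in gpc2, wild type replicate 3 lay near the lowest DpDf pool. Its difference was -0.15 ± 0.17 over all 6 arrays and -0.30 ± 0.10 without wild type replicate 3, or 1.23-fold more in wild type.

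The dimmer _at probe set of gpc3 read 1212, 1361 and 1541 in DpDf and 1975, 2155 and 533.6 in wild type. The dimmer _x_at probe set read nearly the same, at 1191, 1343 and 1494 in DpDf and 2004, 2094 and 593 in wild type. In both, wild type replicates 1 and 2 were the highest of all arrays and wild type replicate 3 by far the lowest, so the wild-type group enclosed the DpDf group. With all 6 arrays their differences were 0.05 ± 0.51 and -0.02 ± 0.47. Without wild type replicate 3 they were -0.60 ± 0.11 and -0.62 ± 0.11, or 1.51-fold and 1.53-fold more in wild type. The sign of the first turned when this pool was left out.

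The gpc4 probe set read 1367, 1375 and 1275 in DpDf and 2330, 1844 and 1214 in wild type. The DpDf pools lay close together, over a range of 0.11 on the log2 scale, while wild type replicates 1 and 2 lay 0.34 apart. Wild type replicate 3 lay just under the lowest DpDf pool. The difference was -0.37 ± 0.24 over all 6 arrays and -0.63 ± 0.11 without wild type replicate 3, or 1.55-fold more in wild type.

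**Figure D2:**
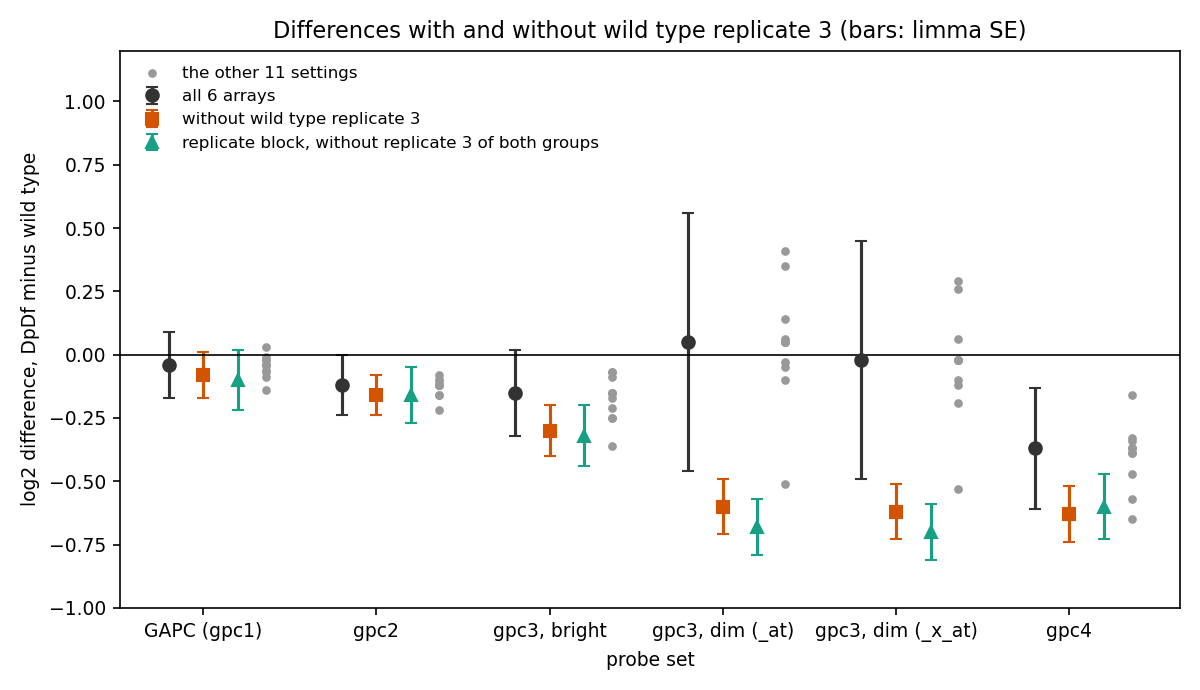
Log2 difference (DpDf minus wild type) of each probe set with all 6 arrays (circles), without wild type replicate 3 (squares) and without replicate 3 of both groups with the replicate number as a block (triangles), with bars for the limma SE and grey points for the other 11 settings. GAPC, gpc2 and the bright gpc3 probe set stay between -0.36 and 0.03, whereas the dimmer gpc3 probe sets run from -0.70 to 0.41 and gpc4 from -0.65 to -0.16.

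With all 6 arrays, limma called 0 of the 6 members at an adjusted p under 0.05, beside 0.0281% of all probe sets called in either direction, and 0 members had an unadjusted p under 0.05. Without wild type replicate 3 it called 3 of the 6 lower, namely gpc4 and both dimmer gpc3 probe sets, beside 0.263% of all probe sets called lower. These calls chose the members in part and support nothing further. The dimmer gpc3 probe sets read nearly the same and are not independent in this or later counts of members. Where replicate 3 of both groups was left out and the replicate number was a block, 0 of the 6 were called (0.0375% of all probe sets in either direction) and 4 had an unadjusted p under 0.05, as did 15.3% of all probe sets. The differences in that fit were -0.60 for gpc4 and -0.68 and -0.70 for the dimmer gpc3 probe sets. This fit keeps only 2 pools a group.

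Per the labels, DpDf and wild-type pools that share a number share a planting, and the members can be read pair by pair. For gpc4 the DpDf pool minus its wild-type partner was -0.77, -0.42 and 0.07 for replicates 1 to 3. For the dimmer _at probe set it was -0.70, -0.66 and 1.53, and for the bright gpc3 probe set -0.21, -0.43 and 0.18. The first 2 pairs thus ran the same way in gpc3 and gpc4, and the pair with wild type replicate 3 ran the other way. Over all probe sets tested, wild type replicate 3 minus the mean of the other wild-type pools had a median of -0.45. How many of all probe sets ran as gpc3 and gpc4 did was not counted. In gpc2 all 3 pairs lay below 0, at -0.23, -0.09 and -0.05, and in GAPC only the first did, at -0.23.

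Without wild type replicate 3, every DpDf pool lay below every remaining wild-type pool in 5 of the 6 members, GAPC being the exception, and this held in 17.5% of all probe sets. With all 6 arrays it held in 0 of the 6 and in 3.61% of all. In both settings the 6 members all lay below the median difference of all probe sets. Relative to that median, gpc4 lay at -0.55 over all 6 arrays and at -0.65 in the setting without wild type replicate 3, and the dimmer _at probe set at -0.12 and -0.62.

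The position of each probe set among all others on its own array, which leaves out the narrower spread of values on wild type replicate 3, separated gpc4 from the dimmer gpc3 probe sets. The percentile of gpc4 was 74.1, 74.3 and 73.4 in DpDf and 84.7, 81.1 and 79.3 in wild type, so all 3 wild-type pools lay above all DpDf pools. For the dimmer _at probe set it was 71.4, 74.1 and 77.3 in DpDf and 82.0, 83.7 and 57.9 in wild type, where wild type replicate 3 stayed the lowest. The bright gpc3 probe set lay at 95.4 to 96.5 in DpDf and 96.6 to 97.0 in wild type. By percentile, 3 of the 6 members had all DpDf pools below all wild-type pools, the other being gpc2, beside 10.5% of all probe sets. With quantile normalization, which gives all arrays one distribution, the difference of gpc4 was -0.57 ± 0.13 over all 6 arrays, and limma called 0 of the 6 members there, with 1 at an unadjusted p under 0.05, as were 10.5% of all probe sets. Those of the dimmer gpc3 probe sets were -0.10 ± 0.44 and -0.19 ± 0.39.

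Wild type replicate 3 departed from the other wild-type pools to very unequal degrees across the family. Its log2 value minus the mean of the other wild-type pools was -0.12 for GAPC and -0.11 for gpc2. For the bright gpc3 probe set the shift was -0.44 and for gpc4 -0.77, beside a median of -0.45 over all probe sets tested. The dimmer gpc3 probe sets shifted by -1.95 and -1.79, and only 0.141% and 0.272% of all probe sets tested lay that low or lower.

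Bright and dim probe sets of gpc3 were next set against each other on the same array. The dimmer _at probe set minus the bright probe set was -2.69, -2.25 and -2.26 on the log2 scale in DpDf and -2.19, -2.01 and -3.61 in wild type. DpDf replicate 1 was the lowest of the DpDf pools and wild type replicate 3 the lowest of all. The DpDf mean was -2.40 ± 0.25 (SD, n = 3) and the wild-type mean -2.61 ± 0.88 (SD, n = 3), or -2.10 without wild type replicate 3. The DpDf mean minus the wild-type mean of this quantity was 0.21 over all 6 arrays and -0.30 once wild type replicate 3 was left out. The 2 dimmer probe sets stayed within 0.15 of each other on every array.

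Across the 110 named genes with at least 2 probe sets tested, the dimmest and brightest probe set of a gene differed in their DpDf minus wild type value by a median of 0.13 in size without wild type replicate 3. For gpc3 this quantity was -0.32, taken for the dimmer _x_at probe set, and 19 of the 110 genes, gpc3 included, were as large or larger in size. A gap of this kind between probe sets of a gene was therefore not rare on these arrays. The shift of wild type replicate 3 in the dimmest against the brightest probe set was -1.35 for gpc3, the lowest of the 110 genes, whose median was -0.10.

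On the same arrays gpc4 minus the bright gpc3 probe set was -2.51, -2.23 and -2.54 in DpDf and -1.95, -2.24 and -2.43 in wild type, so 2 of the 3 wild-type pools lay within the DpDf range. The DpDf mean minus the wild-type mean was -0.22 over all 6 arrays and -0.33 once wild type replicate 3 was left out. The gpc4 probe set minus the dimmer _at probe set was 0.17, 0.01 and -0.27 in DpDf and 0.24, -0.22 and 1.18 in wild type. Without wild type replicate 3 the difference of that quantity between genotypes was -0.04, and both probe sets, which share a cluster number, had nearly the same difference. For GAPC and gpc2 the spread was smaller, as gpc2 minus GAPC was -0.02, -0.13 and -0.13 in DpDf and -0.02, 0.00 and 0.00 in wild type.

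**Figure D3:**
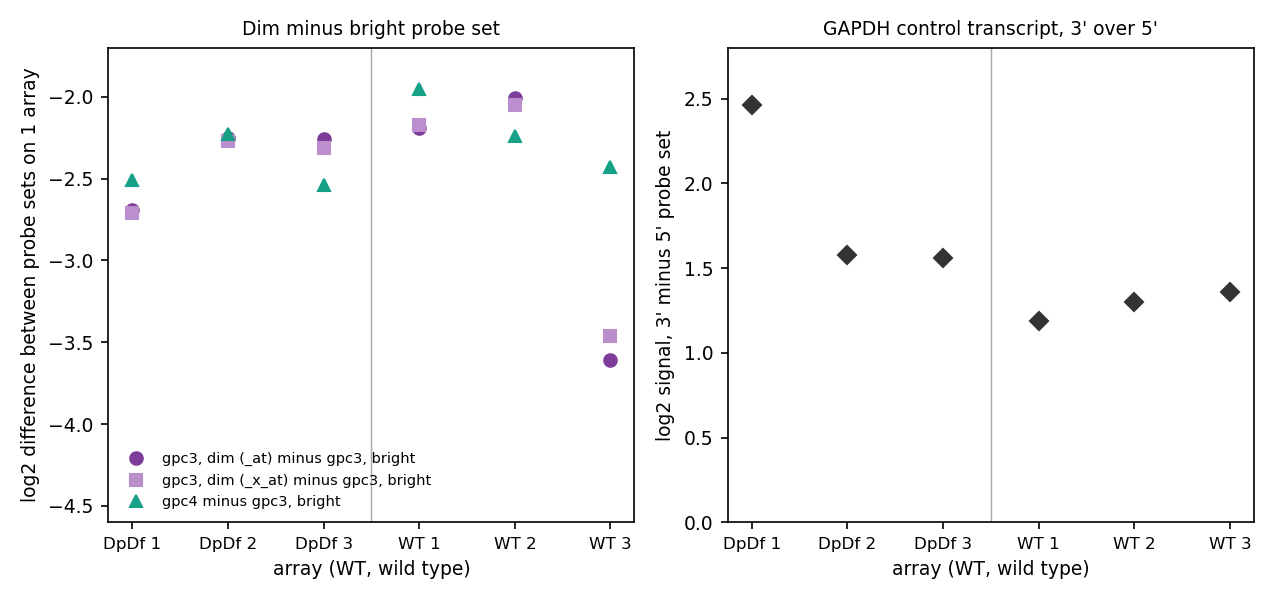
Left, log2 difference between 2 probe sets on the same array, for each dimmer gpc3 probe set and for gpc4 minus the bright gpc3 probe set. Right, log2 signal of the 3' control probe set minus the 5' one of the GAPDH control transcript. DpDf replicate 1 has the highest control value, 2.46, and wild type replicate 3 the lowest gpc3 differences, -3.61 and -3.46.

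The array carries control probe sets for the 3' and 5' ends of a GAPDH transcript, whose ratio is lower where RNA is intact and labelled over its full length. The 3' probe set of the main pair ends in _s_at, the ending of probe sets shared by several transcripts. Which GAPDH genes this pair reports was not tested. On the log2 scale, the 3' over 5' signal was 2.46, 1.58 and 1.56 in DpDf and 1.19, 1.30 and 1.36 in wild type. The 2 genotypes did not overlap, with means of 1.87 ± 0.51 in DpDf and 1.28 ± 0.09 in wild-type pools (SD, n = 3 per genotype). The exact permutation test, two-sided, gave p = 0.1, which no design of 3 against 3 arrays can go below. Without DpDf replicate 1 the DpDf mean was 1.57. Without both this pool and wild type replicate 3, the differences of gpc4 and of the dimmer gpc3 probe sets were -0.65, -0.51 and -0.53. These 3 of the 6 members were called lower there, beside 1.26% of all probe sets, and since calls of this contrast chose the members nothing is read from it. Wild type replicate 3 did not stand apart in this ratio. A second pair of GAPDH controls lay under the 40th percentile on all 6 arrays and read 1.23 to 1.37 in DpDf and 1.23, 1.44 and -0.10 in wild type (two-sided exact permutation p = 0.7, n = 3 each). The part of RNA quality in the member differences was not tested further.

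Likeness among the members was described by Pearson's r over the 5 arrays other than wild type replicate 3 and over all 6. Points within a group share a genotype, and the same arrays carry any quality difference. The dimmer _at and _x_at probe sets had r = 0.997 and r = 0.998. The bright gpc3 probe set was no closer to them (0.731 and 0.742 with the dimmer _at probe set) than to gpc4 (0.81 and 0.85). GAPC was the member least like the bright gpc3 probe set, at -0.046 and 0.124.

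Among 972 probe sets of other named genes, the pattern most like gpc4 over 5 arrays was that of RR7, a cytokinin response regulator gene (r = 0.995), followed by Hb2, a haemoglobin gene (r = 0.993). Over all 6 arrays Hb2 kept r = 0.949, whereas that of RR7 was 0.043. For the bright gpc3 probe set the nearest were pk8-a (0.997, and 0.995 over 6 arrays) and TCTP, the translationally controlled tumour protein gene (0.958 and 0.97). For both dimmer gpc3 probe sets the nearest was the protein disulfide isomerase gene pdi5 (0.996 and 0.995), at 0.423 and 0.47 over 6 arrays. It was followed by a further probe set of pk8-a for the dimmer _at probe set (0.985, and -0.753 over 6 arrays) and by SRP2B for the dimmer _x_at probe set (0.987, and 0.413 over 6 arrays). For gpc2 they were LOC541617 (0.998 and 0.794) and the plastid phosphate translocator gene ppt1 (0.993 and 0.49), and for GAPC they were STY2 (0.993 and 0.99) and the dehydrin gene dhn-2 (0.989 and 0.473). Over these 5 points, 36 of the 972 had r of at least 0.95 with gpc4, 2 with the bright gpc3 probe set and 13 to 26 with the other members.

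The other GAPDH genes are those of the plastid and of the non-phosphorylating enzyme. The plastid gene gpa1 had a mean log2 value of 12.61 in DpDf and 12.38 in wild type, a difference of 0.23 ± 0.13 with all 6 arrays (limma adjusted p = 0.562) and 0.16 ± 0.09 without wild type replicate 3 (adjusted p = 0.346). For gpb1 the differences were 0.16 ± 0.22 (adjusted p = 0.707) and -0.09 ± 0.08 (adjusted p = 0.577). The gene gpn1, which encodes the latter enzyme, had 0.11 ± 0.13 and 0.10 ± 0.11 (limma adjusted p = 0.684, then 0.6). None of the 3 passed the test in either setting, and whether they differ from gpc3 and gpc4 was not tested.

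The list of other GAPDH, glycolysis, fermentation and sucrose cleavage genes held 19 genes on the array with 27 probe sets, of which 18 from 16 genes passed the filter on low values. With all 6 arrays limma called 0 of the 18, beside 0.0281% of all probe sets, and 3 had an unadjusted p under 0.05, beside 9.76% of all. Their median difference was 0.04, beside 0.18 over all probe sets. Without wild type replicate 3 it called 1 higher and 0 lower, beside 3.07% higher and 0.263% lower of all probe sets, and the median was -0.07 beside 0.02. In both settings 13 of the 18 lay below the median of all probe sets.

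**Figure D4:**
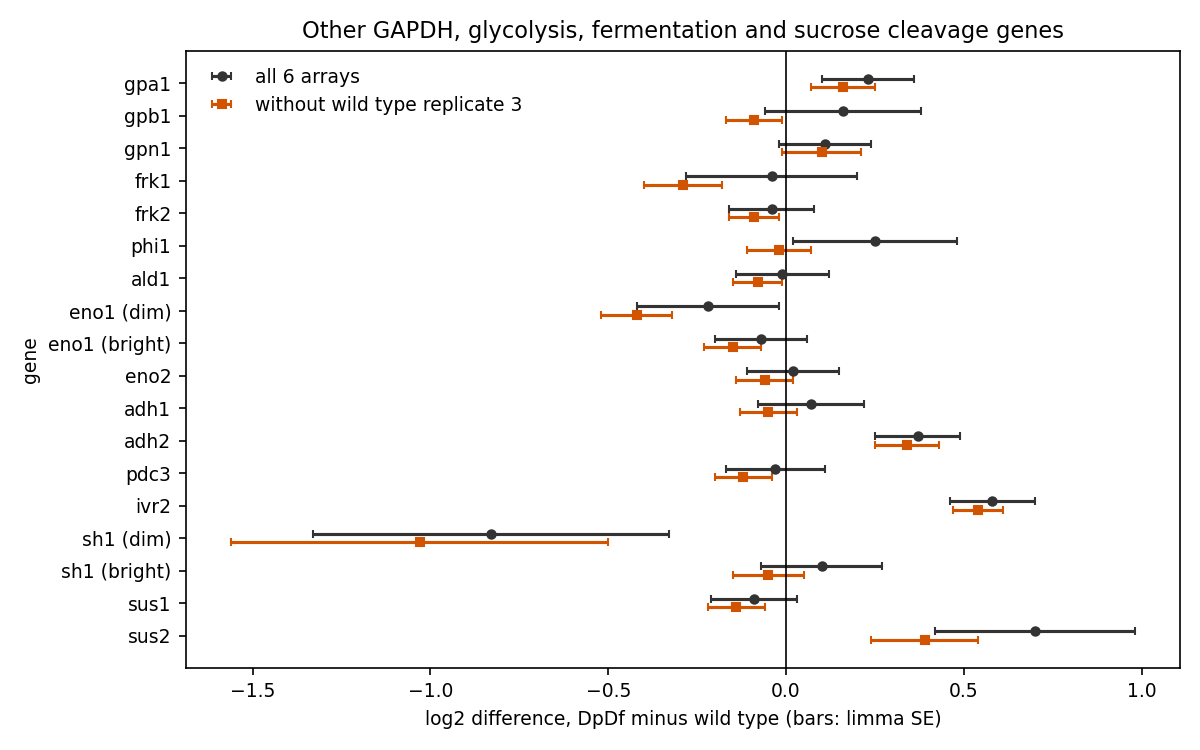
Log2 difference (DpDf minus wild type) of the 18 other probe sets of the pathway list, with all 6 arrays (circles) and without wild type replicate 3 (squares), and bars for the limma SE. Only ivr2, at 0.54 without wild type replicate 3, passed the test, and the dim probe set of sh1 has the lowest value, -1.03, with a wide error.

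The gene called higher was ivr2, which encodes a soluble invertase. It lies 38.7% along the gene order of chromosome 5 and, by base position, inside what was taken as the short arm. Whether it belongs to the segment present in 3 copies is not known here. Its difference was 0.54 ± 0.07 without wild type replicate 3 (limma adjusted p = 0.0155) and 0.58 ± 0.12 with all 6 arrays (adjusted p = 0.302). The next highest were the sucrose synthase gene sus2 (0.39, limma adjusted p = 0.204) and the alcohol dehydrogenase gene adh2 (0.34, adjusted p = 0.104). When all 6 arrays were used, sus2 lay at 0.70 (limma adjusted p = 0.499) and adh2 at 0.37 (adjusted p = 0.43). The lowest without wild type replicate 3 were the dim probe set of the sucrose synthase gene sh1 (-1.03 ± 0.53, limma adjusted p = 0.314), the dim probe set of the enolase gene eno1 (-0.42 ± 0.10, adjusted p = 0.0834) and the fructokinase gene frk1 (-0.29 ± 0.11, adjusted p = 0.214). Their values over all 6 arrays were -0.83, -0.22 and -0.04. The value of sh1 came mostly from DpDf replicate 1, where it read 8.53 on the log2 scale, against 10.21 and 10.48 in the other DpDf pools and 10.15 to 10.93 in wild type.

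Both genes of the list with 2 probe sets tested showed the lower value in the dimmer one, as gpc3 did without wild type replicate 3. Over the 110 named genes above, the value of the dimmest minus that of the brightest had a median of -0.05 in that setting. The bright probe set of eno1 lay at -0.15 and that of sh1 at -0.05 without wild type replicate 3. The anaerobic marker gene adh1 read -0.05 ± 0.08 without wild type replicate 3 (limma adjusted p = 0.72) and 0.07 ± 0.15 with all 6 arrays (adjusted p = 0.817). All 6 probe sets of the pyruvate decarboxylase genes pdc1 and pdc2 failed the filter on low values, while pdc3 passed it. The difference of pdc3 was -0.12 without wild type replicate 3 (limma adjusted p = 0.435) and -0.03 with all 6 arrays (adjusted p = 0.923).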

How the data were processed

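The deposited values are linear intensities, 1 for each of 17621 probe sets (and 113 controls) on each array, a scale read from the values themselves. The submitters' processing notes name GCOS 1.2 and GCRMA without their role, and how the authors scaled the arrays is not given in the sources used. Arrays carry no read depth. Their number limits the precision.

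Intensities were analysed as log2(intensity + 1). Controls aside, the filter on low values required 3 of 6 arrays at or above their own 40th percentile. It left 10661 probe sets (60.5%), among them all 6 members. limma 3.58.1 in R 4.3.3 compared the 2 genotypes without a block, p-values were adjusted by Benjamini-Hochberg over the 10661, and 0.05 was the threshold. The fits were tested on simulated data in which a probe set had the same spread on every array. An outlying array such as wild type replicate 3 was thus not covered. GAPDH controls served only for the 3' over 5' check, by an exact permutation test.

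Names came from the platform table, updated by gene identifier from the RefSeq annotation of Zm-B73-REFERENCE-NAM-5.0, which also gave gene order. The first 40% of chromosome 5 by base position, not by gene order, was taken as the short arm. Pathway genes were matched by symbol and synonym, and ptk1 and pdlk1, matched only through a shared synonym, were removed after matching. Named genes were all members, for each member the 2 other named genes of highest r over 5 arrays, and of the list every called probe set, the 3 highest, the 3 lowest and the plastid GAPDH genes. The genes gpn1, adh1 and pdc3 and the bright probe sets of eno1 and sh1 were named besides, after their values were seen. The members and lists were chosen with earlier results of these data known. Per the labels, pools of 1 number share a planting. Within the 3 pairs, deviations from the mean of the genotype had correlations of 0.076, -0.164 and 0.195.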

Additional observations from a re-analysis of the deposited data

How the results depend on the processing

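The median difference of the 6 members was -0.08 with all 6 arrays and -0.45 to -0.03 with single arrays left out, the lowest without wild type replicate 3. It was -0.46 with the replicate block without replicate 3 of both groups and -0.43 without wild type replicate 3 and DpDf replicate 1 together, a setting chosen after seeing the data. The number of probe sets called was 3 with all 6 arrays, 2 to 355 with single arrays left out, 355 being without wild type replicate 3, and 753 with both pools left out. Members called lower numbered 0 to 3 with single arrays left out, the 3 being without wild type replicate 3, beside 0.263% of all probe sets. With both pools left out 3 were called lower, beside 1.26% of all. List probe sets called in either direction numbered 0 to 1 of 18 with single arrays left out. The 1 was without wild type replicate 3, beside 355 of all 10661. With both pools left out 2 of the 18 were called in either direction, beside 753 of all 10661. With the replicate number as a block and all 6 arrays, the members' median was -0.08, and the 3 probe sets called were all 3 of those called without the block. The 3' over 5' difference of the GAPDH control was 0.58, and with single arrays left out 0.29 to 0.74. With the second GAPDH control pair, added after seeing the data, it was 0.43, and -0.04 without wild type replicate 3. Over 14 settings the differences of gpc2, gpc4 and the bright gpc3 probe set were below 0 in all, that of GAPC in 13, the dimmer _x_at probe set of gpc3 in 11 and its dimmer _at probe set in 6. The cause of these changes was not tested.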
